A study of Mus musculus with 11 samples.

Results

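The genes described here are 42 mouse chaperone and stress regulator genes: cytosolic heat shock proteins and their co-chaperones, the chaperones of mitochondria and of the endoplasmic reticulum (ER), and transcription factors of the heat shock and unfolded protein responses. They were taken from a list of symbols, matched to Ensembl identifiers of GENCODE M21, and make up 42 of the 52550 rows of the deposited count table. All 42 were found in the table and all 42 passed the filter on low counts that left 15373 genes.

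The study asked how lowered signalling through the retinoic acid receptor Rarβ changes transcription in the presence of a mutation that causes Huntington disease. Poly(A) RNA was sequenced from mice aged 8 weeks, whose nucleus accumbens shell, a part of the ventral striatum, had been punched out, on a CBA/C57BL6J/129svEmx mixed background. The series design lists 12 samples and gives a genotype for 1 of them, R6/1 0/0 with Rarβ+/+, which failed quality control and was left out. R6/1 is a transgenic line that expresses a fragment of human huntingtin with an expanded glutamine repeat. The other 11 libraries carry an animal code (m115, m49 and so on) and no genotype or sex, so none could be put in a group. No genotype is compared here, and the spread between libraries holds genotype, animal, dissection and library preparation together.

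Chaperones bind unfolded or misfolded proteins and help them reach or regain their shape. HSP70 proteins bind and release short exposed stretches under the control of J proteins, which start the cycle, and of nucleotide exchange factors, which end it, while HSP90 acts later on partly folded clients such as kinases and steroid receptors. Protein damage in the cytosol activates the transcription factor Hsf1. Damage in the ER activates the sensors Ern1, Eif2ak3 and Atf6, which act through Xbp1, Atf4 and Atf6 itself on genes such as Hspa5 and Ddit3. In Huntington disease these proteins are of interest because mutant huntingtin aggregates, and several J proteins and HSP70 act on such aggregates.

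Library totals ran from 24840981 counts in m61 to 48825783 in m49, and 3 counts corresponded to 0.0619 to 0.133 CPM (counts scaled to the library size). The following 2 features of the libraries bear on the values below. The first is the level of long against short transcripts. It was measured on log2 deviations, as the median over the longest 10% of tested genes minus the median over the shortest 10%, and it ran from -0.64 in m61, -0.46 in m83 and -0.42 in m74 to 0.43 in m115 and m57. The second is the summed level of 10 markers of striatal projection neurons, which was 1842 to 2308 CPM in the 6 libraries with description codes numbered 1 to 7 and 3863 to 4697 CPM in the 5 with codes 9 to 14. What the code numbers stand for is not given. The ranges of the 2 sets overlapped for each of the 42 members, beside 2.32% of all genes tested for which they did not overlap. Library m61 also had the lowest total, the highest share of mitochondrial counts (7.21%, against 2.90% in m74) and the highest summed level of 5 markers of cortical glutamatergic neurons, 2356 CPM against 780 to 1434 CPM in the other 10 libraries. Markers of other cells were measured in each library: astrocytes at a sum of 1549 to 2677 CPM, oligodendrocytes at 1729 to 4385 CPM, microglia at 211 to 344 CPM, endothelium at 81.9 to 114.8 CPM and neuroblasts with dividing cells at 88.8 to 295 CPM. The 3 ependyma markers summed to 2.32 to 26.1 CPM, and the choroid plexus marker Ttr was at most 0.224 CPM with a median of 0. In bulk tissue, fewer cells of a type and less RNA per cell cannot be told apart.

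Short sequences upstream of the genes are shown first, because 3 of the relations between genes tested below join ER chaperones with Hspa5 and because Hspd1 and Hspe1 share 1 promoter region. Windows of 250 bases before to 50 bases after each RefSeq transcription start were available for 33 of the 42 members (mouse build GRCm38.p6). Both strands were searched. The ER stress response element (CCAAT and CCACG with 9 bases between them) was found in 4 of the 7 ER members with a window and in 0 of the 20 cytosolic members with one, and 0.137% of the 27025 genes with a window held it. It is the element through which Atf6 acts on ER chaperone genes. The windows below give it in capitals, and 2 matches lie upstream of Hsp90b1.
Hspa5, chr2:34772020-34772048, plus strand, -70 to -42 from the start: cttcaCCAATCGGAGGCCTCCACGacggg
Hsp90b1, chr10:86705633-86705661, minus strand, -217 to -189: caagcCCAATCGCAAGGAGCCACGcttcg
Hsp90b1, chr10:86705528-86705556, plus strand, -112 to -84: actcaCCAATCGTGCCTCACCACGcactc
Dnajc3, chr14:118937822-118937850, plus strand, -110 to -82: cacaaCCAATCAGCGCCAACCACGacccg
Calr, chr8:84847070-84847098, plus strand, -167 to -139: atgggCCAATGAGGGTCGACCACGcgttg
The second match of Hsp90b1 and the match of Calr are printed on the strand opposite to the gene. The Hspa5 window also overlaps an annotated exon of a GENCODE transcript.

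A heat shock element of 3 units (GAA, TTC and GAA with 2 bases between neighbours), the kind of site that Hsf1 binds, was found in 5 members (Hspd1, Hspe1, Dnajb6, Hsph1 and Chordc1) and in 0.662% of all genes with a window. For Hspd1 and Hspe1, which lie head to head on chromosome 1, the 2 matches are the same bases, counted once from each gene. The 2 matches overlap each other, and the capitals in the Hspe1 window span both.
Hspe1, chr1:55088053-55088082, plus strand, -95 to -66: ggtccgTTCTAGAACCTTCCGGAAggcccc
Dnajb6, chr5:29735846-29735875, plus strand, -52 to -23: ctccgaGAATCTTCCGGAAcgctagaccag
Both windows overlap annotated exons. The unfolded protein response element TGACGTGG was found in 0 members (0.714% of all genes), and the CEBP-ATF element TGATGNAA in 0 members (4.51% of all genes). A match is a string of letters and not a measured binding site, and a missing match says only that these letters are not in the window.

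Together the 42 genes took 0.813% (m83) to 0.986% (m49) of the counts of a library. Levels were compared between genes per kilobase of exonic length. The cytosolic HSP90 Hsp90ab1 stood highest, with a median of 610 CPM per kb, followed by the ER lectin chaperone Calr at 157, the inducible HSP90 Hsp90aa1 at 151 and the constitutive HSP70 Hspa8 at 149 CPM per kb. The ranges of Calr, Hsp90aa1 and Hspa8 over the libraries overlapped one another. The stress-inducible genes Hspa1a, Hspa1b, Hspb1 and Bag3 stood lowest, at medians of 0.747, 0.760, 2.23 and 3.08 CPM per kb. Of the stretches of 50 bases in their transcripts, 66.3% in Hspa1a, 62.3% in Hspa1b and 50.1% in Hspb1 also occur in another annotated gene. For Hsp90aa1 and Hspa8 the shares are 47.5% and 39.4%, against 0.343% for Calr. How reads that match several genes were counted is not given, so levels of genes with large shares, and their order, are uncertain.

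**Figure D1:**
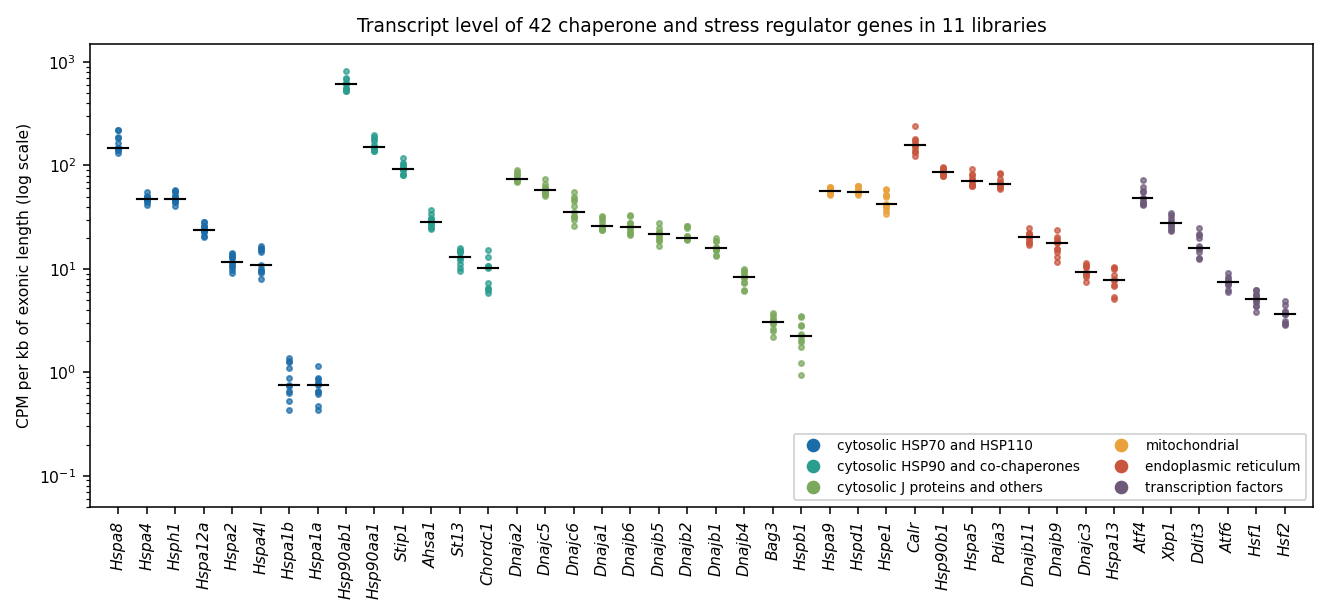
Level of each of the 42 members in CPM per kb of exonic length (log scale), with 1 point for each of 11 libraries, a bar at the median and colours for the compartment. Hsp90ab1 stands highest at a median of 610 CPM per kb and Hspa1a and Hspa1b stand lowest, under 1 CPM per kb at the median.

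The spread of a gene between libraries is given as its biological coefficient of variation, the variation left after counting error, and as the ratio of its highest to its lowest library. The median spread of the 42 members was 0.141, against 0.201 for the 15373 genes tested, and 9 of the 42 lay above that median. A ratio of at least 2 was reached by 8 of 42 members (Hspa1a, Hspa1b, Hspa4l, Chordc1, Dnajc6, Hspb1, Hspa13 and Dnajb9) and by 48.6% of all genes tested. The members were more abundant than most genes, with a median of 127 CPM against 23.5 CPM. Among genes with a median of at least 20 CPM, 5 of 38 members and 28.5% of 8259 genes reached that ratio, and the median spread was 0.132 against 0.163. By compartment the median spread was 0.0725 for the 3 mitochondrial members, 0.128 for the 8 of the ER, 0.136 for the 6 of cytosolic HSP90, 0.141 for the 11 J proteins and others, 0.161 for the 6 transcription factors and 0.165 for the 8 of cytosolic HSP70 and HSP110. These medians are descriptions with no test.

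The highest and lowest values were not shared evenly among the libraries. Library m61 held the highest value of 10 members (Hspa8, Hsp90aa1, Dnaja1, Dnajb6, Hspe1, Hspa5, Dnajb9, Dnajb11, Calr and Xbp1) and of 17.9% of all genes tested. The same library held the lowest value of 2 members (Dnajb5 and Hsf1) and of 25.5% of all genes, so it was extreme in both directions. Library m49 held the highest value of another 10 (Hspa4, Hsph1, Hsp90ab1, Stip1, Dnajb1, Dnajc5, Bag3, Hspa9, Hspd1 and Pdia3) and of 10.7% of all genes. Library m83 held the lowest value of 10 members, among them Hspa4l, Chordc1, St13 and Dnajc6, and of 8.81% of all genes. The part of mitochondrial counts and of cortical markers, both highest in m61, in its values was not tested.

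**Figure D2:**
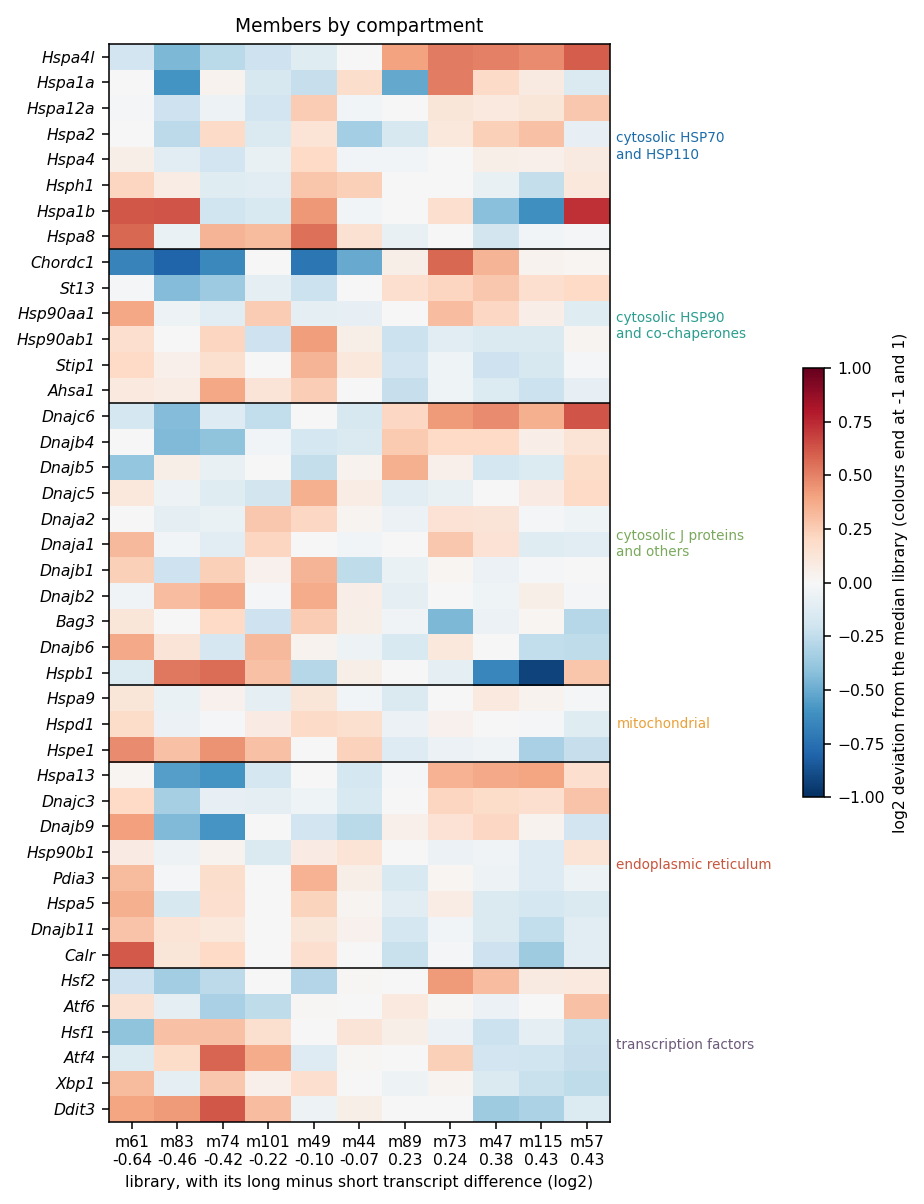
Log2 deviation of each member from its median library, with members grouped by compartment and the 11 libraries ordered by their long minus short transcript difference (log2, under each name). Hspa4l and Dnajc6 are mostly blue on the left and red on the right, and Calr, Hspe1 and Ddit3 the other way round.

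Among the cytosolic HSP70 and HSP110 genes, Hspa8, which folds new proteins and uncoats clathrin vesicles, was the most abundant. Its level was 565 CPM in m47, 640 CPM at the median and 954 CPM in m61. The 4 libraries m61, m49, m74 and m101, at 796 CPM or more, stood above the other 7, which lay at 713 CPM or less. Of the stretches of 50 bases in Hspa8 transcripts, 39.4% also occur in another annotated gene, most of them in its processed pseudogene Gm15459 (chr5:5781615-5783555), which was named after its values were seen. Gm15459 held 2274 counts in m47, 3023 in m83, 3273 in m73 and 4315 in m74, and 8 to 93 counts in the other 7 libraries. In those 4 libraries it took 9.82 to 11.6% of the counts of both genes. With the counts of both genes summed, the level was 610 CPM in m89, 713 CPM at the median and 955 CPM in m61, and the same 4 libraries stood highest. How reads that match both were counted is not given, so the division between them and their summed level are uncertain.

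Hspa4, an HSP110 protein that exchanges nucleotide on HSP70, had the smallest spread of the group at 0.0725, with 232 CPM in m74, 264 CPM at the median and 303 CPM in m49. Its relative Hspa4l ran from 94.8 CPM in m83 through a median of 130 CPM to 197 CPM in m57. The 5 libraries m115, m47, m73, m89 and m57 lay at 171 CPM or more and the other 6 at 130 CPM or less. Hsph1, the other HSP110 of the cytosol, ran from 294 CPM in m115 to 419 CPM in m49. The remaining members Hspa2 (24.4 to 38.1 CPM) and Hspa12a (189 to 262 CPM) had ratios of 1.56 and 1.39.

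The stress-inducible pair Hspa1a and Hspa1b, which a stressed cell raises from a low base, was low in each library. Hspa1a (chr17:34969190-34972156, minus strand) was at 1.29 CPM in m83, 2.22 CPM at the median and 3.38 CPM in m73. Hspa1b (chr17:34956436-34959238, minus strand) was at 1.22 CPM in m115, 2.13 CPM at the median and 3.87 CPM in m57. The summed level of both genes was 3.54 to 5.84 CPM, a ratio of 1.65, beside 2.61 for Hspa1a and 3.17 for Hspa1b alone. Hspa1b took 33.8% of the 145 counts of both genes in m115 (95% Wilson interval 26.6 to 41.8%) and 73.4% of the 222 counts in m83 (67.3 to 78.8%). The interval lay wholly above 50% in 5 libraries (m89, m61, m49, m57 and m83) and wholly below it in 3 (m115, m47 and m73). These intervals cover counting error only.

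The 2 genes start 12918 bases apart and are nearly copies of each other. Of the 250 bases before their starts 247 are identical, and 62.3% of the stretches of 50 bases in Hspa1b transcripts occur also in Hspa1a. The last 120 bases before each start are shown, with the base that differs in capitals.
Hspa1a, chr17:34972157-34972276, minus strand: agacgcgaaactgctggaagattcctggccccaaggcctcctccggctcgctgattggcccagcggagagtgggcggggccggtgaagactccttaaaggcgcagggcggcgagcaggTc
Hspa1b, chr17:34959239-34959358, minus strand: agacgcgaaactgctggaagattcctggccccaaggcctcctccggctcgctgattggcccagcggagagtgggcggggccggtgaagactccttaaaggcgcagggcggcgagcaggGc
How reads that match both genes were counted is not stated in the labels or notes used here. The division of counts between the 2 genes and their summed level are therefore uncertain.

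**Figure D3:**
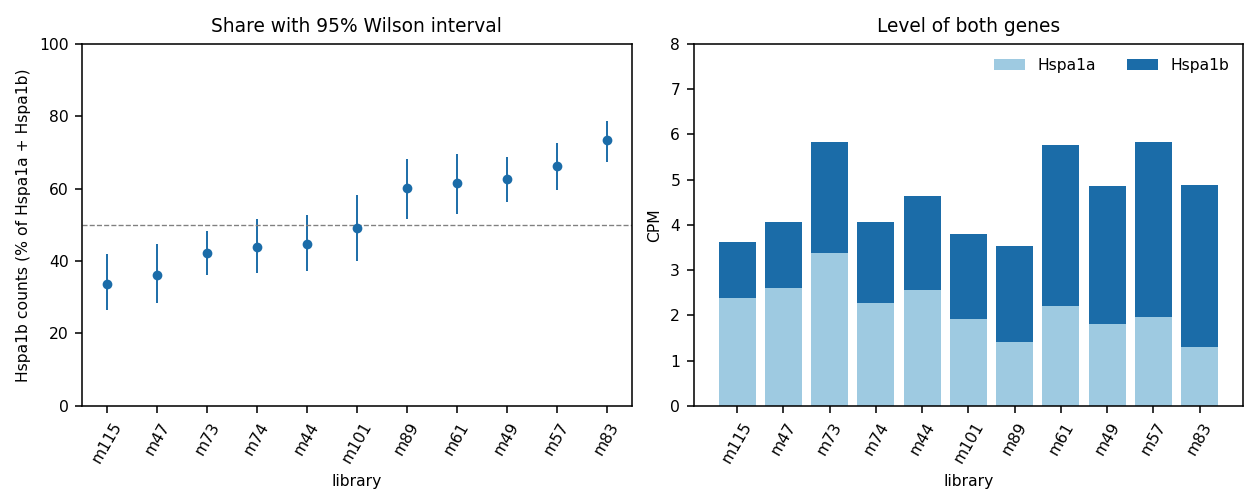
Left, Hspa1b counts as a percentage of Hspa1a plus Hspa1b counts in each of 11 libraries, with 95% Wilson intervals and a dashed line at 50%. Right, the levels of both genes in CPM, stacked, in the same order. The share runs from 33.8% in m115 to 73.4% in m83 while the summed level stays between 3.54 and 5.84 CPM.

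In the HSP90 group, Hsp90ab1, the constitutive cytosolic HSP90, ran from 1573 CPM in m89 through 1831 CPM at the median to 2443 CPM in m49. The inducible Hsp90aa1 ran from 545 CPM in m57 through 593 CPM to 776 CPM in m61. The CPM ratio of Hsp90ab1 to Hsp90aa1 was 2.24 in m101 and 4.41 in m49, since m49 was highest in the first gene and among the low libraries in the second. Of the stretches of 50 bases in Hsp90aa1, 47.5% also occur in another annotated gene, most of them in the pseudogene Gm12346, so its count could be split. Gm12346 itself held 0 to 12 counts in a library. Stip1, which bridges HSP70 and HSP90, had the smallest spread of the group (0.119, 169 to 247 CPM). Chordc1, a co-chaperone of HSP90, had the largest at 0.329. Its level was 44.1 CPM in m83, 77.2 CPM at the median and 115.2 CPM in m73, and 5 libraries (m83, m49, m61, m74 and m44) lay at 54.3 CPM or less while the other 6 lay at 77.2 CPM or more. Ahsa1, which speeds the ATPase of HSP90, ran from 106 to 163 CPM, and St13, an HSP70 cofactor, from 99.4 to 162 CPM.

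Among J proteins and other co-chaperones, Dnaja2 was the most abundant per length (74.4 CPM per kb) and had the smallest spread, 0.0858, with 206 CPM in m83, 221 CPM at the median and 267 CPM in m101. Dnajc5, the cysteine string protein of synaptic vesicles, lay at 352 to 511 CPM. Dnajc6, or auxilin, which recruits Hspa8 to clathrin coats in neurons, varied more, from 155 CPM in m83 through 210 CPM to 325 CPM in m57. The 5 libraries that were high in Hspa4l were also the 5 highest in Dnajc6, at 242 CPM or more. Dnajb1 and Dnajb6, J proteins known to act on polyglutamine aggregates, ran from 42.2 to 64.2 CPM and from 130 to 202 CPM. Dnajb2, which is enriched in neurons, ran from 80.2 to 111 CPM, and Dnaja1, Dnajb4 and Dnajb5 had ratios of 1.36 to 1.68. The small heat shock protein Hspb1 had the largest spread of all members, 0.366, at 0.972 CPM in m115, 2.30 CPM at the median and 3.62 CPM in m74. It was counted from 39 to 161 reads a library, and 50.1% of its stretches of 50 bases also occur in another gene, nearly all of them in the pseudogene Hsp25-ps1, which was at 0 counts in each library. Bag3, which links HSP70 to autophagy, stayed between 5.62 and 9.51 CPM.

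The 3 mitochondrial chaperones were close to one another per length, with medians of 56.0 CPM per kb for Hspd1 and 42.2 for Hspe1, Hspa9 just above Hspd1, and overlapping ranges. Hspa9, the HSP70 of the matrix, had the smallest spread of all 42 members, 0.0601. Its level was 222 CPM in m89, 246 CPM at the median and 268 CPM in m49. Hspd1 (HSP60, the barrel-shaped chaperonin) ran from 136 CPM in m57 through 148 CPM to 169 CPM in m49. Hspe1 (HSP10, the lid of that barrel) ran from 49.7 CPM in m115 through 62.3 CPM to 86.5 CPM in m61, with a spread of 0.189. The 2 genes are transcribed away from each other, and the Hspe1 start at position 55088148 of chromosome 1 lies 215 bases from one annotated Hspd1 start, while another Hspd1 start overlaps it. Their annotated limits overlap (Hspd1 chr1:55077835-55088243 and Hspe1 chr1:55088132-55091307), and the strand setting of the counting is not given, so reads there are uncertain. Of the stretches of 50 bases in Hspd1, 42.1% also occur in another annotated gene, most of them in the pseudogene Hspd1-ps3, which held 0 to 13 counts in a library. Over all members, 33 annotated pseudogenes held at least 1% of the stretches of a member. In 30 of these pairs the pseudogene had at most 1% of the counts of its member in each library, and the other 3 were Gm15459 with Hspa8 (up to 13.1%), Gm4247 with Dnajb6 (up to 1.52%) and 1810014B01Rik with Hsp90b1 (up to 1.47%). The annotated limits of 1810014B01Rik (chr10:86685525-86694806) overlap those of Hsp90b1 itself (chr10:86690209-86705509).

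In the ER group, Calr was the most abundant per length. It stood at 353 CPM in m115, 452 CPM at the median and 690 CPM in m61, with m61 apart from the next library, m74, at 518 CPM. Hspa5 (BiP, the HSP70 of the ER and the best known target of the unfolded protein response) ran from 267 CPM in m115 through 302 CPM to 387 CPM in m61. Pdia3, a disulfide isomerase that works with Calr on glycoproteins, ran from 186 CPM in m89 through 208 CPM to 265 CPM in m49. Hsp90b1 (GRP94, the HSP90 of the ER) had the smallest spread of the group, 0.0667, at 318 CPM in m101, 351 CPM at the median and 386 CPM in m57. The J proteins Dnajb11 (54.9 to 79.6 CPM) and Dnajc3 (38.3 to 58.7 CPM) had ratios of 1.45 and 1.54. Dnajb9, a J protein that holds the sensor Ern1 inactive through Hspa5, ran from 29.8 CPM in m74 through 45.2 CPM to 60.2 CPM in m61. Hspa13 had the largest spread, 0.232, at 35.2 CPM in m74, 53.4 CPM at the median and 70.6 CPM in m115. The 3 libraries m115, m47 and m73 lay at 68.0 CPM or more, and m74 and m83 at 36.4 CPM or less.

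Among the transcription factors, Atf4, which a stressed cell translates when general translation falls, was the most abundant per length (48.4 CPM per kb). It ran from 97.0 CPM in m57 through 114 CPM to 171 CPM in m74. Ddit3 (CHOP), a target of Atf4 that is linked to cell death under lasting stress, had the largest spread of the group, 0.220, with 21.3 CPM in m47, 27.4 CPM at the median and 42.4 CPM in m74. Atf6 had the smallest, 0.118, at 54.9 CPM in m74, 68.8 CPM at the median and 84.3 CPM in m57. Xbp1 ran from 75.5 to 113 CPM, Hsf1 from 27.4 to 44.7 CPM and Hsf2 from 27.3 to 46.99 CPM. Total Xbp1 counts do not separate its spliced, active form from the unspliced one.

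Each gene was then fitted on the long minus short transcript difference of the library, with edgeR's quasi-likelihood test and Benjamini-Hochberg adjustment over all 15373 genes. The slope is the log2 change in level per log2 unit of that difference, which comes from the same count table. Of 42 members, 7 rose with it and 7 fell, and 28 did not pass. Of all genes tested 18.0% rose and 14.9% fell, 32.9% in all, so the share of members past the threshold was near the background. The 7 that rose were Hspa4l, Chordc1, Dnajc6, Hspa13, Hsf2, St13 and Dnajb4, with exonic lengths of 5909 to 11792 bases. The 7 that fell were Ddit3, Hspe1, Calr, Hspa8, Xbp1, Ahsa1 and Dnajb11, with 1474 to 4377 bases. Across the 42 members Pearson's r of log2 exonic length with the slope was 0.70, and it was 0.46 across 15353 genes with a length. The length difference is itself made from the longest and shortest genes, so a positive r is partly built in. So is the split into long genes that rose and short genes that fell. The r is a description across genes, which are not independent replicates, and not a result about the members. Of the 42 cell type markers tested, 6 also passed along the length difference. The astrocyte marker Aqp4 (0.77, edgeR adjusted p = 0.0187) and the neuroblast marker Dcx (1.35, edgeR adjusted p = 0.00461) were higher where long transcripts were higher. The microglia markers C1qa (-0.82, edgeR adjusted p = 0.000838) and C1qb (-1.01, edgeR adjusted p = 0.000607), the oligodendrocyte marker Mobp (-0.77, edgeR adjusted p = 0.0427) and the cortical neuron marker Slc17a7 (-0.76, edgeR adjusted p = 0.0221) were lower. Of the 10 projection neuron markers 0 passed in edgeR's test, and 1, Pde10a, had an unadjusted p under 0.05. With the library set as a further covariate 12 of the 42 markers passed, among them the projection neuron markers Ppp1r1b, Drd1, Penk and Pde10a. The share of all genes that passed in that fit is not given here, so the 12 is not read as a result about cell types. The part of these cells in the slopes of the members was not tested.

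**Figure D4:**
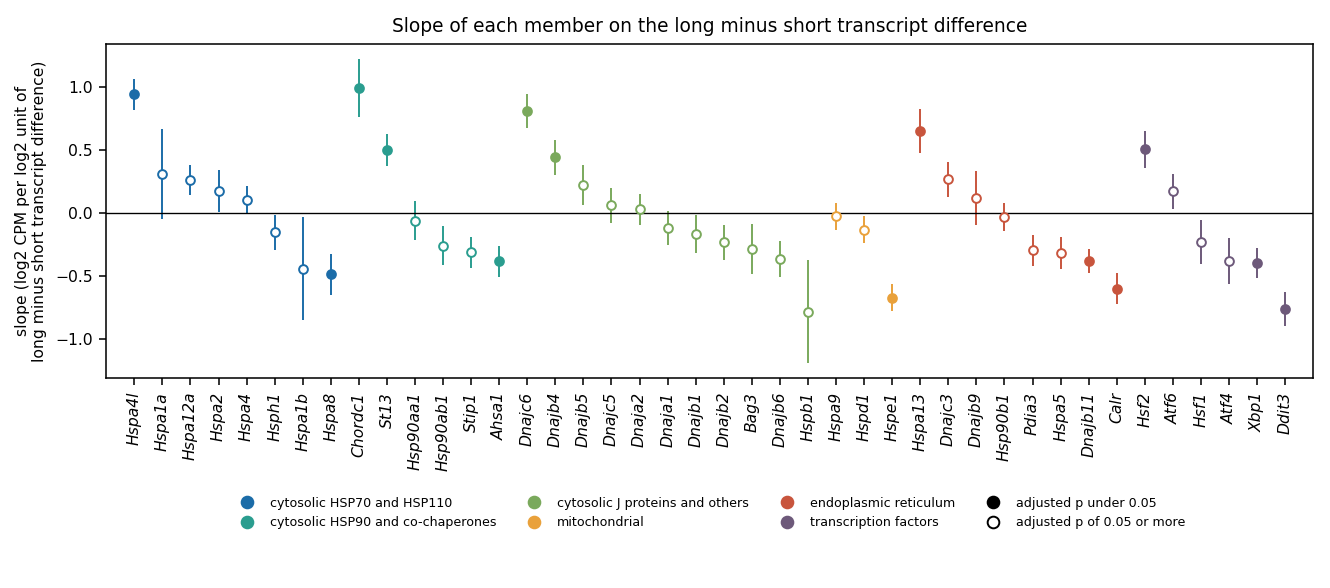
Slope of each member on the long minus short transcript difference (log2 CPM per log2 unit), with its standard error as a bar, by compartment. Filled points passed an adjusted p of 0.05 over all genes tested: 7 lie above 0, from Dnajb4 at 0.44 to Chordc1 at 0.99, and 7 below, from Dnajb11 at -0.38 to Ddit3 at -0.76.

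The steepest slope was that of Chordc1, 0.99 ± 0.23 (SE, 11 libraries, edgeR adjusted p = 0.00435). Hspa4l had 0.94 ± 0.13 (edgeR adjusted p = 0.000188) and Dnajc6 had 0.81 ± 0.13 (edgeR adjusted p = 0.000607). These 3 genes and Hspa13 (0.65 ± 0.17) are 4 of the 8 members with a ratio of at least 2. Among members that fell, Ddit3 had -0.76 ± 0.14 (edgeR adjusted p = 0.000906), Hspe1 had -0.67 ± 0.11 (edgeR adjusted p = 0.000506) and Calr had -0.60 ± 0.12 (edgeR adjusted p = 0.00218). The other 8 that passed had slopes of 0.44 to 0.65 or of -0.48 to -0.38. Under the 19 alternatives, which do not hold the permutation tests, 10 of the 14 kept the call each time. Hspa8 lost it without m115, m47, m61 or m89 (edgeR adjusted p up to 0.0898), and Dnajb4 without m47, m83 or m74 (up to 0.0843). Ahsa1 lost it without m115, m47 or m74 (up to 0.0738 over these and the fit without scaling), and Xbp1 without m115 or without scaling (up to 0.0522). In the permutation test of Pearson's r with the length difference, Hspa8 missed the threshold (adjusted p = 0.0694). In that of Spearman's rho, Hspa8 (adjusted p = 0.177), Dnajb4 (0.0874), Hspa13 (0.0578) and Ahsa1 (0.0517) missed it. With the counts of Gm15459 added to those of Hspa8, the slope of Hspa8 was -0.50 ± 0.14 (edgeR adjusted p = 0.0169), beside -0.48 ± 0.16 (edgeR adjusted p = 0.0319) as deposited. Hspa1a, Hspa1b and Hspb1 had slopes smaller than 2 standard errors. By compartment the calls were 1 up and 1 down of 8 in HSP70 and HSP110, 2 up and 1 down of 6 in HSP90, 2 up and 0 down of 11 in J proteins, 0 up and 1 down of 3 in mitochondria, 1 up and 2 down of 8 in the ER and 1 up and 2 down of 6 among the transcription factors.

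The rest of the pathways was read from 55 further genes, of which 54 passed the filter. Their median spread was 0.140, against 0.201 for all genes tested. Of the 54, 6 rose along the length difference and 20 fell, where 18.0% of all genes rose and 14.9% fell. By group these were 2 up and 1 down of 10 ER sensors and regulators, 4 up and 4 down of 18 ER folding and degradation genes, 0 up and 3 down of 6 mitochondrial partners, and 0 up and 12 down of 20 cytosolic partners. Those 12 had exonic lengths from 1349 bases (Bag1) to 8194 bases (Cdc37). As for the members, falls of short genes are partly built into the length difference. The counts are therefore not read as a result about these genes. Trib3, a pseudokinase induced by Atf4 and Ddit3, had the largest spread at 0.769, with 0.425 CPM in m73, 1.03 CPM at the median and 5.60 CPM in m83. Ern1, the sensor that splices Xbp1, was lowest in m61 (3.81 CPM) and highest in m57 (15.4 CPM), and its slope was 1.41 (edgeR adjusted p = 0.000232). The small heat shock protein Cryab, which oligodendrocytes and astrocytes also express, ran from 19.3 CPM in m47 to 56.7 CPM in m61. The most abundant by CPM was the lectin chaperone Canx, at a median of 390 CPM. Per kilobase of exonic length Bag1 stood above it, at a median of 107 against 83.2 CPM per kb.

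A family of 12 relations between pairs of genes known as partners was tested over the 11 libraries on log2(CPM + 0.5), two-sided, with 100000 permutations and Benjamini-Hochberg adjustment over the 12. Of these, 3 passed, and each joined genes of the unfolded protein response. Hspa5 and Pdia3 rose and fell together (Pearson's r = 0.91, permutation p = 0.00013, adjusted p = 0.00156, with Spearman's rho = 0.85, permutation p = 0.00152, adjusted p = 0.0182). Library by library, m61, m49 and m74 were the 3 highest in both genes, and m115, m83, m57, m47 and m89 were the 5 lowest in both. Without m61 and m49, the 2 libraries farthest from the median of Hspa5, r was 0.82. Both genes also tended lower where long transcripts were higher, at r of -0.65 and -0.67 with the length difference, and neither slope passed the test. After both genes were fitted on that difference, r of the residuals was 0.84 (permutation adjusted p = 0.0142). With each library set centred on its own mean r was 0.91, and within the 6 libraries of codes 1 to 7 it was 0.92, while the other set held 5 libraries, fewer than the 6 taken here as the least for an r. Among 15372 genes ordered by their r with Hspa5, Pdia3 ranked 9, Calr 73 and Hsp90b1 3896, and in the residuals they ranked 34, 161 and 2808.

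Hspa5 and Calr had r = 0.85 (permutation p = 0.00076, adjusted p = 0.00456) and rho = 0.74 (permutation p = 0.0128, adjusted p = 0.0510). This relation leaned on m61, the highest library in both genes: without m61 r was 0.72 (permutation adjusted p = 0.0806), and without m61 and m49 it was 0.66. The residuals from the length difference gave r = 0.76 (permutation adjusted p = 0.0180), the sets centred on their means gave 0.90, and the value within codes 1 to 7 was 0.96. Hspa5 and Hsp90b1, which both carry the ER stress response element shown above, had r = 0.38 (permutation p = 0.253, adjusted p = 0.389), and rho was 0.35 (permutation p = 0.298, adjusted p = 0.447). Without m61 and m49 that r was 0.14, and without m57 alone it was 0.60. With each library set centred it was 0.51, and within codes 1 to 7 it was 0.73. Hsp90b1 was highest in m57 and m44, and m57 was among the low libraries in Hspa5. The match of letters was present in the windows of Hspa5, Calr and Hsp90b1, and Pdia3 had no match in its window. The part of the element in these relations was not tested.

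Atf4 and Ddit3 had r = 0.75 (permutation p = 0.00756, adjusted p = 0.0302) and rho = 0.76 (permutation p = 0.00852, adjusted p = 0.0510). Library m74 was the highest in both, at 171 and 42.4 CPM, and m115, m47 and m57 were the 3 lowest in both. Without m74 r was 0.61 (permutation adjusted p = 0.203), without m74 and m101 it was 0.53, and the call was kept in 3 of the 11 fits that each left out 1 library. Library m61 stood off the trend, at 104 CPM for Atf4 and 36.2 CPM for Ddit3, and without it r was 0.90. The residuals from the length difference gave r = 0.81 (permutation adjusted p = 0.0142), and with each library set centred r was 0.86 (permutation adjusted p = 0.00348). Among 15372 genes ordered by their r with Ddit3, Atf4 ranked 1453, with 9.45% of genes higher. By r with Atf4, Ddit3 ranked 275. In the residuals these ranks were 87 and 477.

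**Figure D5:**
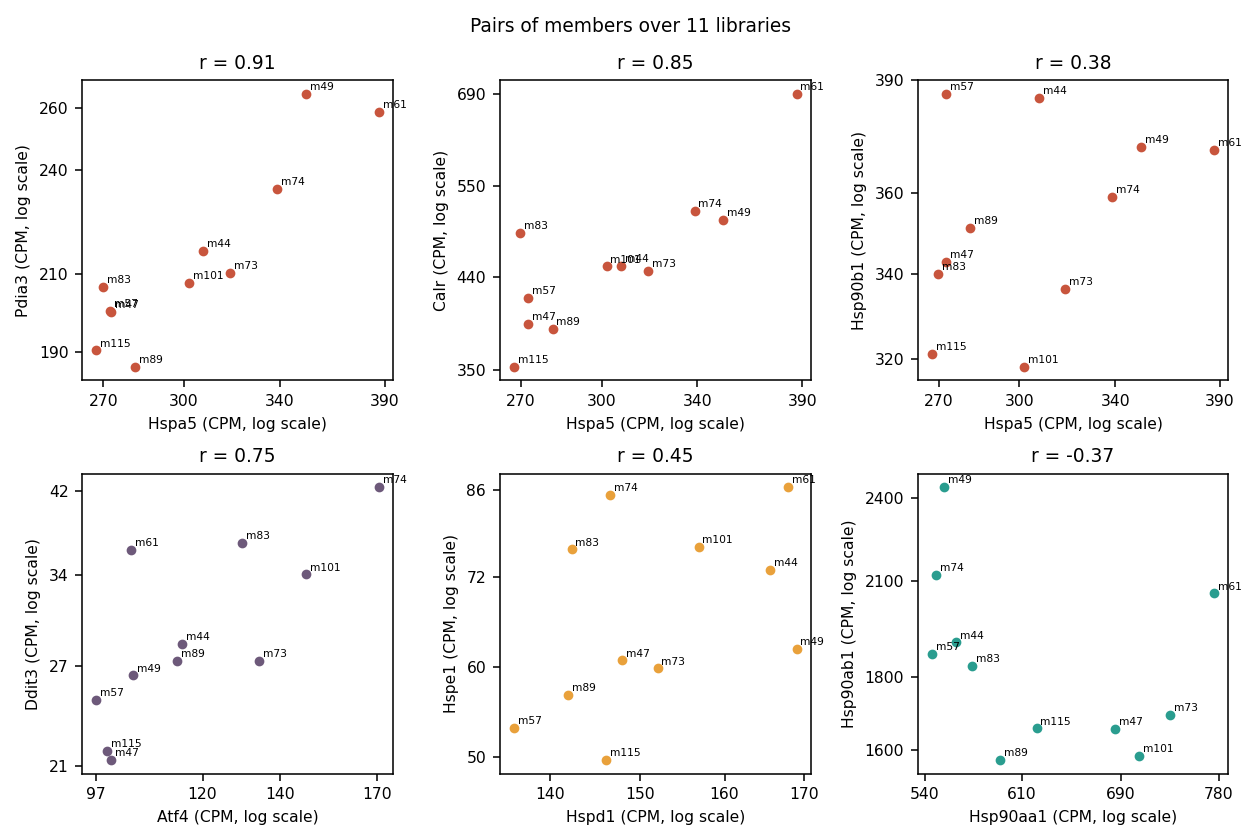
Levels in CPM (log scales) of 6 pairs of members, 1 point for each of 11 libraries, with Pearson's r on log2(CPM + 0.5) above each panel. Hspa5 with Pdia3 (r = 0.91), Hspa5 with Calr (0.85) and Atf4 with Ddit3 (0.75) passed the permutation test, and the other 3 panels did not.

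The other 9 relations did not pass. Hspd1 and Hspe1, head to head at 1 promoter region, had r = 0.45 (permutation p = 0.162, adjusted p = 0.323) and rho = 0.54 (permutation p = 0.0946, adjusted p = 0.254). Without m49 and m61 r was 0.43, and the residuals from the length difference gave 0.04, since Hspe1 followed that difference closely (r = -0.94) and Hspd1 less so (r = -0.47). Hspd1 and Hspa9 had r = 0.47 (permutation p = 0.138, adjusted p = 0.323) and rho = 0.52 (permutation p = 0.106, adjusted p = 0.254). Hspa8 and Hsph1 had r = 0.46 (permutation p = 0.157, adjusted p = 0.323) and rho = 0.36 (permutation p = 0.272, adjusted p = 0.447), and r was 0.38 with the counts of Gm15459 added to those of Hspa8. The 2 cytosolic HSP90 genes had r = -0.37 (permutation p = 0.259, adjusted p = 0.389) and rho = -0.45 (permutation p = 0.173, adjusted p = 0.346). Hsph1 with Hsp90aa1 had r = -0.16 (permutation p = 0.628, adjusted p = 0.713) and rho = -0.19 (permutation p = 0.575, adjusted p = 0.690). Dnajb1 and Hspa1b, both targets of Hsf1, had r = 0.15 (permutation p = 0.651, adjusted p = 0.713) and rho = 0.11 (permutation p = 0.755, adjusted p = 0.823). Xbp1 and its target Dnajb9 had r = -0.01 (permutation p = 0.983, adjusted p = 0.983) and rho = 0.05 (permutation p = 0.903, adjusted p = 0.903). Hsph1 and Cirbp, a cold-induced RNA-binding protein at 80.9 to 147 CPM, had r = -0.15 (permutation p = 0.654, adjusted p = 0.713) and rho = -0.25 (permutation p = 0.466, adjusted p = 0.621). With 2 libraries left out, those whose level of the first gene lay farthest from its median, r was 0.03 for Hspd1 with Hspa9, -0.09 for Hspa8 with Hsph1 and 0.18 for Hsph1 with Hsp90aa1. It was -0.70 for the 2 HSP90 genes, -0.03 for Dnajb1 with Hspa1b, -0.08 for Xbp1 with Dnajb9 and -0.38 for Hsph1 with Cirbp. Within the 6 libraries of codes 1 to 7, r was -0.85 for the 2 HSP90 genes, -0.80 for Xbp1 with Dnajb9 and 0.68 for Dnajb1 with Hspa1b. In that set it was 0.58 for Hspa8 with Hsph1, -0.29 for Hsph1 with Hsp90aa1 and 0.16 for Hspd1 with Hspa9. For Hspd1 with Hspe1 it was 0.06, and for Hsph1 with Cirbp 0.01. The values within that set were not tested. The signs of the relations of Dnajb1 with Hspa1b, of Xbp1 with Dnajb9 and of Hsph1 with Cirbp changed with the processing. A p that misses the threshold in 11 libraries does not show that 2 genes vary apart.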

How the data were processed

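The authors deposited raw read counts for each gene, with no normalization. The submitters' processing notes name HTSeq 0.6.1, TopHat2 2.0.14, Bowtie2 2.1.0, bcl2fastq 2.17.1.14 and the build mm10. The strand setting of the counting was not given in the sources used here, nor was the annotation release. Per the labels' protocols, punches were cut from 300 µm frozen sections and 200 ng of their RNA went into each library by the TruSeq Stranded protocol, which marks strand with dUTP, and 12 cycles of PCR. Identifiers were matched to GENCODE M21 (52403 of 52550 rows, the other 147 holding 0.0112 to 0.0214% of counts). That release gave names, coordinates and exonic lengths, and promoter windows came from RefSeq (GRCm38.p6).

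CPM were computed from the deposited counts with edgeR 4.0.16 (R 4.3.3) and TMM scaling factors of 0.908 to 1.06. A gene was tested if 3 libraries reached 1 CPM and its median count reached 10. The spread came from an intercept-only fit, with no sharing of information across genes. Relations between genes used Python 3.11.15 with numpy 2.4.6, pandas 2.3.3 and scipy 1.17.1, and DESeq2 1.42.0 served for alternatives. A gene was to get no r over all libraries if its largest gap was over 0.5 of a log2 range of at least 1, with 2 libraries on each side, and no gene of the 12 relations met this. Figures were drawn with matplotlib 3.10.9. The scripts were tested on simulated data. No labels say how the animals were assigned, so the p-values of slopes and relations concern association across these libraries and no effect of a group.

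The members, gene lists, relations and alternatives were chosen with earlier results of these data known. Described in depth were, per compartment, the most abundant member per length, those of largest and smallest spread, those with a ratio of at least 2 and the genes of relations that passed or share a promoter. Of other genes these were Cirbp, the 3 pathway genes of largest spread and the most abundant one by CPM. Other members are given by their ranges.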

Additional observations from a re-analysis of the deposited data

How the results depend on the processing

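The settings tried were DESeq2 size factors, no scaling beyond the total count, other filters, pseudocounts of 0.1 and 2, the longest and shortest 20% of genes, protein-coding genes only, other tests of the slope, residuals from the length difference, and each of the 11 libraries left out. A further 4 were added after seeing the data: the library set as a covariate, each set centred, Hspa8 counts summed with those of Gm15459, and genes with a median of at least 20 CPM. Apart from the fits that left out 1 library, 143 values kept their call or size, 6 moved and 4 changed sign. The count of members with a ratio of at least 2 was 5 with at least 5 CPM in every library (39 members) and also 5 at a median of at least 20 CPM (38 members), which hold fewer genes. At a median of at least 20 CPM, 28.5% of 8259 genes reached that ratio. The share of all genes with at least 5 CPM in every library is not given here, so the 5 of 39 is not read as a result about the members. With the main filter, the count was 6 to 9 when 1 library was left out, beside 38.8% (without m61) to 47.8% (without m44) of all genes. The members that fell along the length difference were 11 with DESeq2's Wald test, 6 with the permutation of r, and 4 (without m115) to 9 (without m49) when 1 library was left out. Those that rose were 7 with both other tests and 6 to 9 with 1 library left out. Of all genes, 26.6% (without m115) to 34.1% (without m61) passed in either direction with 1 library left out. The shares of all genes under the 2 other tests are not given here, so those counts are not read as a result about the members. The median spread of the members was 0.131 to 0.144 with 1 library left out. The relation of Hspa5 and Pdia3 kept its call in all 11 such fits (r of 0.875 to 0.929). That of Hspa5 and Calr ranged from 0.725 (without m61) to 0.948, and that of Atf4 and Ddit3 from 0.610 (without m74) to 0.896. The relation of Dnajb1 and Hspa1b was -0.13 without scaling. That of Xbp1 and Dnajb9 was 0.0627 with DESeq2 size factors, 0.30 in residuals and -0.447 (without m61) to 0.366 (without m74) with 1 library left out. That of Hsph1 and Cirbp was 0.21 with each library set centred. None of these 3 passed in any setting, and the causes of the changes were not tested. No paired analysis was possible because the labels give no groups or replicate numbers. Low counts limit Hspa1a, Hspa1b and Hspb1.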
